A study of Mus musculus with 6 samples.

Results

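Calcineurin is the phosphatase that cyclosporin A and FK506 inhibit, and the NFAT factors are the transcription factors it activates. The 10 genes described here encode calcineurin (Ppp3ca, Ppp3cb, Ppp3cc and Ppp3r1), its inhibitors Rcan1 and Cabin1, and the factors Nfatc1, Nfatc2, Nfatc3 and Nfat5. They were chosen by name, with earlier results of these data known, and all 10 were among the 15212 genes of the count table. RNA of activated pulmonary ILC2s (aILC2s) had been sequenced in bulk from 3 Vsir-/- and 3 WT preparations, to ask how loss of VISTA, an inhibitory receptor of the immunoglobulin superfamily, alters these cells. Vsir-/- mice carried the germline allele Vsirtm1Lex, so the gene was missing in every cell of the animal and not in ILC2s alone. WT mice were BALB/cByJ, and both genotypes were on a BALB/c background and 5 to 8 weeks old. The allele is named for a B6N and 129S5 origin, and the number of backcrosses is not given in the sources used here. Both genotypes received 0.5 µg of rmIL-33 intranasally on 3 days, lungs were taken on day 4, and ILC2s were sorted as live CD45+ lineage- ST2+ CD127+ cells. The labels call the cells freshly isolated in one field and cultured in another, and cDNA was amplified from 10 pg of RNA in each case.

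In lymphocytes a rise of cytosolic calcium loads calmodulin, which opens the active site of calcineurin, a dimer of a catalytic A subunit and a calcium-binding B subunit. Calcineurin removes phosphates from NFATc proteins, which then enter the nucleus and bind DNA, often beside AP-1, at cytokine genes. NFAT5 has the same kind of DNA-binding domain but no calcineurin docking region, and is known as the factor that answers hypertonic stress. In mouse ILC2s, leukotrienes and neuromedin U are known to raise calcium and to drive type 2 cytokines through this route.

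The rounded counts of a library summed to between 15680892 and 29197999. Each of the 10 genes had between 216 and 3802 counts in every library, so none of their values rests on a count near 0. Levels are CPM (counts scaled to the library total, with TMM factors). Vsir, the deleted gene, had 2 counts in the Vsir-/- libraries together and 420 in the WT libraries (p = 0.1 by a two-sided exact permutation test on CPM, the lowest that 3 against 3 libraries allow). All 10 listed ILC2 markers were in the table and summed to 9701 to 10468 CPM in Vsir-/- libraries and 7697 to 8855 CPM in WT libraries. Il2ra, the most abundant, was at 5974 ± 406 CPM in Vsir-/- and 2735 ± 469 CPM in WT and weighs most in these sums. Of the 10, 2 were higher in Vsir-/- (Il2ra and Il7r) and 5 lower (Gata3, Rora, Icos, Thy1 and Klrg1). Of 8 T cell markers, 4 were in the table and summed to 73.9 to 91.9 CPM in Vsir-/- and 163 to 197 CPM in WT libraries. The 3 epithelial markers summed to 4.24 to 5.41 CPM in Vsir-/- and 21.4 to 21.9 CPM in WT libraries. Among them Scgb1a1, a secretoglobin of club cells, had no count in the Vsir-/- libraries or in WT replicate 3, and 36 and 46 counts in WT replicates 1 and 2. Monocyte, macrophage and dendritic cell markers, all 6 in the table, summed to 5.91 to 7.48 CPM in Vsir-/- and 6.64 to 13.5 CPM in WT libraries. The 3 granulocyte and mast cell markers in the table, of 5 listed, summed to 3.02 to 5.91 CPM in Vsir-/- and 1.94 to 2.79 CPM in WT libraries. B cell markers (2 of 4 in the table) stood at 10.9 to 14.9 CPM in Vsir-/- and 11.1 to 17.4 CPM in WT libraries. Pecam1, the endothelial and stromal marker in the table, of 3 listed, was at 48.3 to 53.8 CPM in Vsir-/- and 35.6 to 41.1 CPM in WT libraries. Of the 3 NK cell markers only Eomes was in the table, at 0 in all Vsir-/- libraries and at most 0.0626 CPM in a WT library. Whether the marker levels of other cell types have a part in the values of the calcineurin and NFAT genes was not tested. The sources used here do not say whether the libraries of a genotype came from separate mice. The sample numbers of replicates 1 and 2 are the same within Vsir-/- and within WT, so the spread behind the p-values, which is that among these 6 libraries, may be technical. With replicates 1 and 2 summed within each genotype, 3708 genes were called in place of 5124, among them 3 of the 10. WT replicates 2 and 3 also carry the label suffix S0, which WT replicate 1 and the Vsir-/- libraries do not. Its meaning is not given in the sources used here, and for this reason the fit was also run with WT replicate 1 as the single WT library, where the spread comes from the Vsir-/- libraries alone.

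For the inhibitor gene Rcan1, which is itself a known target of NFAT, the promoter sequences are shown because its gene count can add up transcripts of 2 start sites whose windows differ in NFAT motifs. The promoter of Nfat5 is shown because Nfat5 was the member that rose. Each sequence runs 5′ to 3′ on the gene's strand over 300 bases, from 250 before the start to 50 after it (RefSeq, GRCm38.p6). Capitals mark the NFAT core GGAAA or its reverse complement TTTCC, and the AP-1 site TGACTCA or its reverse complement TGAGTCA.
Rcan1, downstream start (chr16:92400029-92400328, minus strand): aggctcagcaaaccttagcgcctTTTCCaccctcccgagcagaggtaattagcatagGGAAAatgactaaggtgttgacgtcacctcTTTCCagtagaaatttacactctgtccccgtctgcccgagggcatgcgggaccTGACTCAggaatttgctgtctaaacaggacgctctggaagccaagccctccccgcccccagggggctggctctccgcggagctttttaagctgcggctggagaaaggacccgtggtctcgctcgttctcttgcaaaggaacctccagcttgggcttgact
Rcan1, upstream start (chr16:92466120-92466419, minus strand): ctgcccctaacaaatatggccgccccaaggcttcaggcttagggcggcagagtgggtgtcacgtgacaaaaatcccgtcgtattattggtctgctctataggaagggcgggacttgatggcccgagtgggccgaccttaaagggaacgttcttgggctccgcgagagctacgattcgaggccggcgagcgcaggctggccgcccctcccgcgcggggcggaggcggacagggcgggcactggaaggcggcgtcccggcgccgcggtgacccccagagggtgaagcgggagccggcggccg
Nfat5 (chr8:107293220-107293519, plus strand): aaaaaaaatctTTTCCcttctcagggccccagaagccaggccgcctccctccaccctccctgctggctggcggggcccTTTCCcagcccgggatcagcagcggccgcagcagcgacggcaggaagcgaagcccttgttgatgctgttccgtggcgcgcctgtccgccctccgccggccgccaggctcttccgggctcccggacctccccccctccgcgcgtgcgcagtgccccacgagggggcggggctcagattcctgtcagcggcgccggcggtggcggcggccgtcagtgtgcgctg

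The downstream window of Rcan1 held 3 NFAT cores and 1 AP-1 site, and the upstream window held none of either. The window of Nfat5 held 2 NFAT cores and no AP-1 site. The core is short and common: 61.3% of the 32851 promoter windows in the table held at least 1, with a median of 1 per window, whereas 5.20% held the AP-1 site. Windows on chromosome 18, where Nfatc1 lies, were left out, and none was matched for Ppp3ca or Ppp3cc. The other 7 of the 10 genes had 10 windows, of which 6 held the NFAT core and 1, that of Rcan1, the AP-1 site. The G and C content was 56.3% downstream and 67.7% upstream at Rcan1, and 72.0% at Nfat5. These matches describe the letters alone, and the counts per gene do not tell which start a transcript came from.

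In Vsir-/- aILC2s, 3 of the 10 genes differed from WT in edgeR's quasi-likelihood test with Benjamini-Hochberg adjustment over all 13166 genes tested. Nfat5 was higher, and Ppp3ca and Nfatc1 were lower. The 3 genes are 30.0% of the 10, against 38.9% of all genes tested (18.9% higher and 20.1% lower), so the share called is no result about these genes. In 6 of the 10 genes the CPM ranges of Vsir-/- and WT were apart, above WT in Nfat5 and Ppp3r1 and below it in Ppp3ca, Nfatc1, Nfatc2 and Rcan1, against 49.4% of all genes tested. The median log2 fold change (log2FC, Vsir-/- over WT) was -0.04 over the 10 genes and -0.01 over all tested, and the median size of the change, sign aside, was 0.25 and 0.32. Since the RNA is from bulk cells, fewer cells with a transcript and less of it per cell cannot be told apart.

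**Figure D1:**
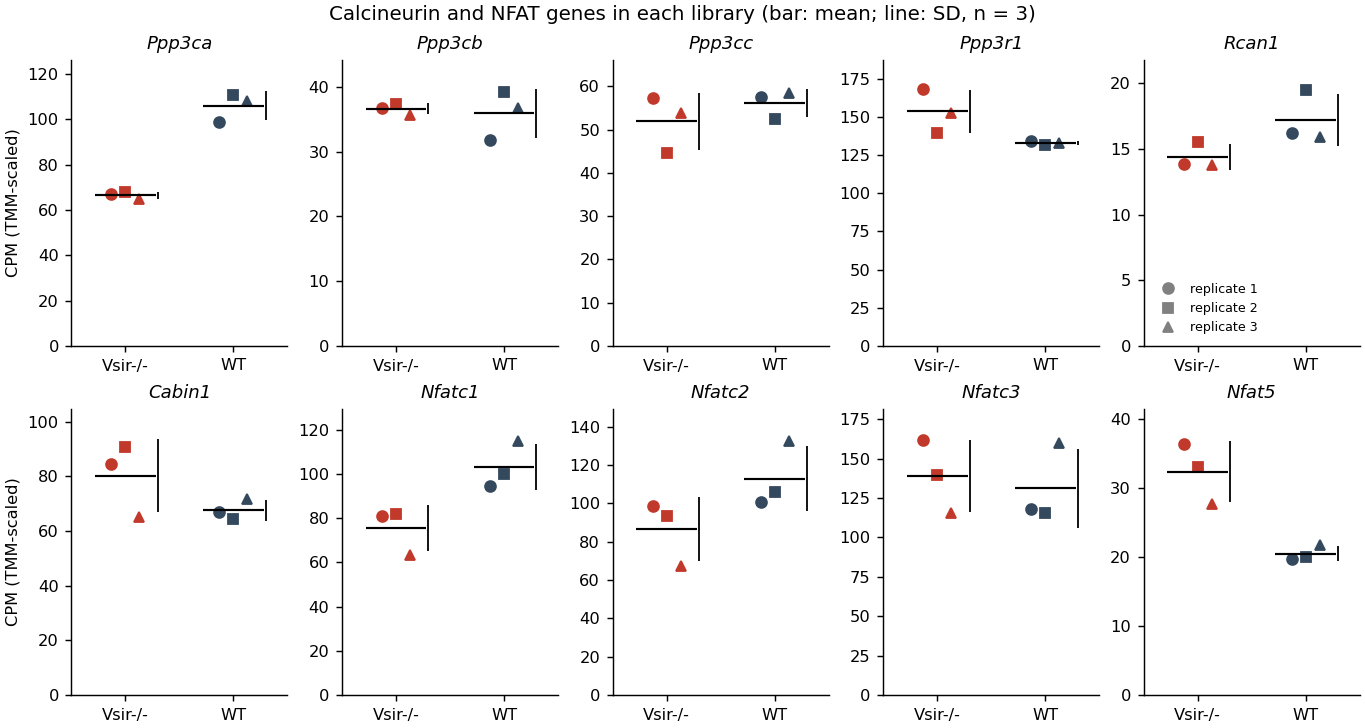
TMM-scaled CPM of each gene in the 3 Vsir-/- libraries (red) and the 3 WT libraries (dark blue), with circles, squares and triangles for replicates 1, 2 and 3, a bar at the mean and a line of 1 SD (n = 3). Ppp3ca lies between 64.7 and 67.9 CPM in Vsir-/- libraries and above 98 CPM in all WT libraries, whereas the ranges of Ppp3cb, Ppp3cc, Cabin1 and Nfatc3 overlap.

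Ppp3ca encodes the alpha isoform of the catalytic subunit, which is abundant in brain. It lies on the plus strand of chromosome 3 of GRCm38, from 136670124 to 136937727. It had 66.9, 67.9 and 64.7 CPM in Vsir-/- libraries, against 98.9, 111 and 108 CPM in WT libraries. The highest Vsir-/- value was well below the lowest WT value, and the spread within Vsir-/- was narrow, at 2.49% of the mean. The fitted level in Vsir-/- aILC2s was 62.7% of WT (log2FC -0.67, SE 0.09, 95% CI -0.87 to -0.48, adjusted p = 0.000177 from edgeR). By unadjusted p it stood at rank 939 of the 13166 genes.

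The other catalytic subunits did not pass the test. Ppp3cb, the beta isoform, needed for normal T cell numbers in mice, lies on chromosome 14 from 20499364 to 20546573. It had 36.8, 37.3 and 35.7 CPM in Vsir-/- libraries and 31.7, 39.3 and 36.7 CPM in WT libraries. Its Vsir-/- values lay inside the WT range (log2FC 0.03, 95% CI -0.21 to 0.27, adjusted p = 0.877 from edgeR). Ppp3cc, the gamma isoform, best known from testis and sperm, lies on the same chromosome from 70217865 to 70289471, with 57.4, 44.6 and 53.8 CPM in Vsir-/- and 57.5, 52.5 and 58.5 CPM in WT libraries. Vsir-/- replicate 2 was its lowest library and the ranges overlapped (log2FC -0.11, 95% CI -0.36 to 0.14, adjusted p = 0.468). The intervals leave room for changes of either sign, but both stop short of the fitted value of Ppp3ca.

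The share of Ppp3ca among the catalytic subunits was lower in each Vsir-/- library than in any WT library. Levels were compared between genes per kb of annotated exons, in which unused exons are also counted. On that scale Ppp3cc was highest, at 17.4 ± 2.22 CPM per kb in Vsir-/- and 18.8 ± 1.08 in WT, followed by Ppp3ca at 6.66 ± 0.166 in Vsir-/- and 10.6 ± 0.635 in WT, and Ppp3cb at 4.15 ± 0.0966 in Vsir-/- and 4.08 ± 0.434 in WT (SD, n = 3). The ranges of the 3 genes did not overlap within either genotype, and their order was the same in both. Ppp3ca made up 22.3%, 26.2% and 22.7% of the summed level in Vsir-/- libraries, against 30.2%, 33.5% and 31.3% in WT libraries. The difference of the means was -7.99 percentage points (p = 0.1 by a two-sided exact permutation test, the lowest it can give here, or 0.117 adjusted over the 7 shares tested). Ppp3cb took 14.8 ± 1.33% in Vsir-/- and 12.2 ± 1.23% in WT, with no overlap, and Ppp3cc 61.5 ± 3.49% in Vsir-/- and 56.1 ± 2.91% in WT, with overlap. The shares of a library add up to the whole and so depend on each other, and the CPM of Ppp3cb itself overlapped.

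Ppp3r1 encodes the calcium-binding B subunit that pairs with each catalytic isoform outside the testis. It lies on chromosome 11 from 17159263 to 17200375 and had 168, 139.9 and 153 CPM in Vsir-/- libraries, against 134, 132 and 133 CPM in WT libraries. Every Vsir-/- library was above every WT library, and the SD of the WT libraries was 0.949% of their mean. The difference did not pass the test (log2FC 0.21, SE 0.09, 95% CI 0.01 to 0.41, adjusted p = 0.0903 from edgeR). It passed without Vsir-/- replicate 2 (0.29, adjusted p = 0.0474) and with offsets for exonic length (0.25, adjusted p = 0.0309). Ppp3r1 shares 462 exonic bases with Wdr92 on the same strand, so reads there could belong to either gene, and Wdr92 stood at 27.9 ± 2.32 CPM in Vsir-/- and 26.2 ± 2.66 CPM in WT (adjusted p = 0.572). On the opposite strand, Nfatc3 shares 219 exonic bases with Esrp2 and Ppp3cc 91 with Gm49417. The strand setting is not given, so reads there are open to the same doubt, and neither Esrp2 nor Gm49417 is in the count table. The 3 catalytic subunits together reached 28.2 ± 2.09 CPM per kb in Vsir-/- and 33.5 ± 0.960 in WT. Divided by Ppp3r1 per kb, this gave 0.577, 0.599 and 0.603 in Vsir-/- libraries, against 0.788, 0.813 and 0.841 in WT libraries, with no overlap (two-sided exact permutation test, p = 0.1). The ratio was computed after the values of its genes were seen.

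**Figure D2:**
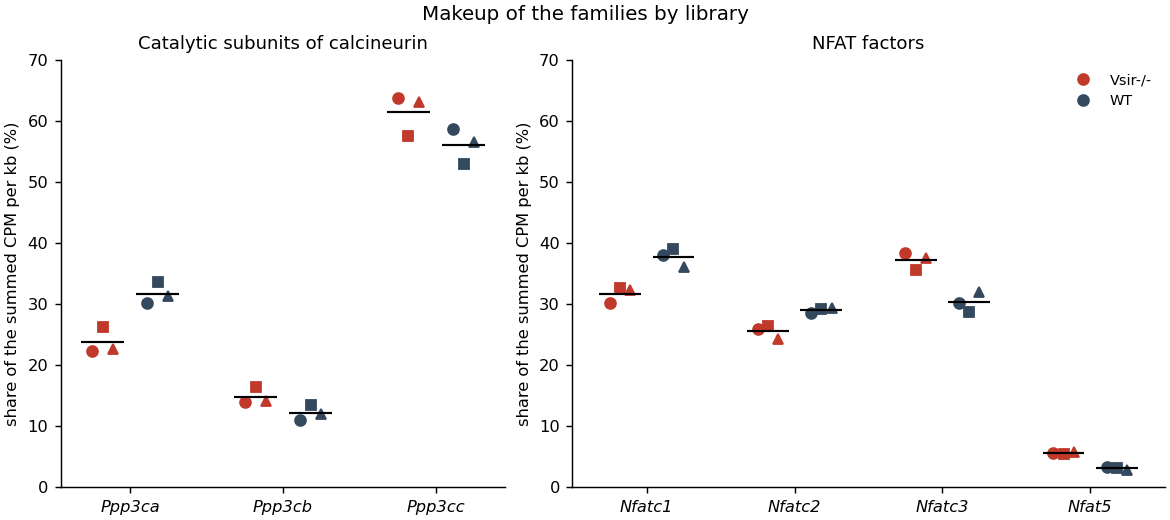
Share of each gene in the summed CPM per kb of the 3 catalytic subunits (left) and of the 4 NFAT factors (right), in Vsir-/- (red) and WT (dark blue) libraries, with circles, squares and triangles for replicates 1, 2 and 3 and a bar at the mean. The shares of Ppp3ca, Nfatc1 and Nfatc2 are lower in all Vsir-/- libraries than in any WT library, those of Ppp3cb, Nfatc3 and Nfat5 are higher, and those of Ppp3cc overlap. Shares of a family add up to the whole in each library, so a higher share need not be a higher level.

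Of the inhibitors, neither passed the test. Rcan1, which binds calcineurin and restrains it, lies on chromosome 16 from 92391953 to 92470867 on the minus strand. It had 13.9, 15.6 and 13.8 CPM in Vsir-/- libraries, against 16.2, 19.5 and 16.0 CPM in WT libraries. The values were all below those of WT, though the gap between the highest Vsir-/- and the lowest WT library was small against the spread within a genotype (log2FC -0.26, SE 0.13, 95% CI -0.55 to 0.03, adjusted p = 0.138 from edgeR). Cabin1, a scaffold that binds calcineurin and also represses MEF2 factors, had 84.5, 90.9 and 65.2 CPM in Vsir-/- libraries and 66.9, 64.3 and 71.8 CPM in WT libraries. Vsir-/- replicate 3 fell among the WT libraries and the other two lay above them (log2FC 0.25, 95% CI -0.03 to 0.52, adjusted p = 0.142). Without that library Cabin1 was called (0.39, adjusted p = 0.0113), and it was also called by limma voom with quality weights (0.30, adjusted p = 0.0411). Per kb of exons, Rcan1 was at 4.67 ± 0.328 CPM in Vsir-/- and 5.58 ± 0.640 in WT, Cabin1 at 6.60 ± 1.102 in Vsir-/- and 5.57 ± 0.313 in WT, and Ppp3r1, the highest of the 10 genes on this scale, at 47.6 ± 4.44 in Vsir-/- and 41.2 ± 0.391 in WT (SD, n = 3). Cabin1 lies on chromosome 10 from 75646112 to 75764341, 15.3 Mb from Vsir on the same chromosome.

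Of the 3 NFAT factors that calcineurin regulates, 1 passed the test. Nfatc1, an NFAT known to be induced by its own signal in T cells, lies on chromosome 18 from 80606205 to 80713071. It had 81.0, 81.8 and 63.3 CPM in Vsir-/- libraries, against 94.7, 99.8 and 115 CPM in WT libraries, with no overlap. The fitted level was 73.1% of WT (log2FC -0.45, SE 0.12, 95% CI -0.72 to -0.19, adjusted p = 0.0127 from edgeR). It kept this call without any single library (adjusted p of 0.0178 to 0.0414), but not with WT replicate 1 as the single WT library (-0.33, adjusted p = 0.238).

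Nfatc2, the form present in resting lymphocytes, lies on chromosome 2 from 168476410 to 168601657. It had 98.7, 93.3 and 67.5 CPM in Vsir-/- libraries and 101, 106 and 132 CPM in WT libraries. The values did not overlap, but Vsir-/- replicate 1 was close to WT replicate 1 (log2FC -0.38, SE 0.15, 95% CI -0.72 to -0.05, adjusted p = 0.0668 from edgeR). It was past the threshold in DESeq2 (adjusted p = 0.0478), without Vsir-/- replicate 1 (-0.49, adjusted p = 0.0408) and with offsets for exonic length (-0.39, adjusted p = 0.00926). Nfatc3, on chromosome 8 from 106058840 to 106130537, encodes a factor known from thymocytes and had 162, 139.7 and 116 CPM in Vsir-/- libraries and 118, 116 and 160.2 CPM in WT libraries. Its ranges covered each other almost fully (log2FC 0.08, 95% CI -0.25 to 0.42, adjusted p = 0.694).

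Nfat5 was the member that rose. It lies on the same strand of chromosome 8 as Nfatc3, from 107293470 to 107379517. It had 36.5, 33.1 and 27.7 CPM in Vsir-/- libraries, against 19.8, 19.98 and 21.8 CPM in WT libraries. All Vsir-/- libraries were above all WT libraries, with Vsir-/- replicate 3 the closest to them. The fitted level was 158% of WT (log2FC 0.66, SE 0.13, 95% CI 0.38 to 0.94, adjusted p = 0.00216 from edgeR). In the alternatives with at least 2 libraries per genotype Nfat5 was called each time, at 0.57 to 0.78 on the log2 scale (adjusted p of 2.57e-05 to 0.0272), and so was Ppp3ca, at -0.72 to -0.62 (2.86e-09 to 0.00308). Against the single WT library, with a spread from Vsir-/- alone, Nfat5 was at 0.71 (adjusted p = 0.0371) and Ppp3ca at -0.57 (0.0213).

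**Figure D3:**
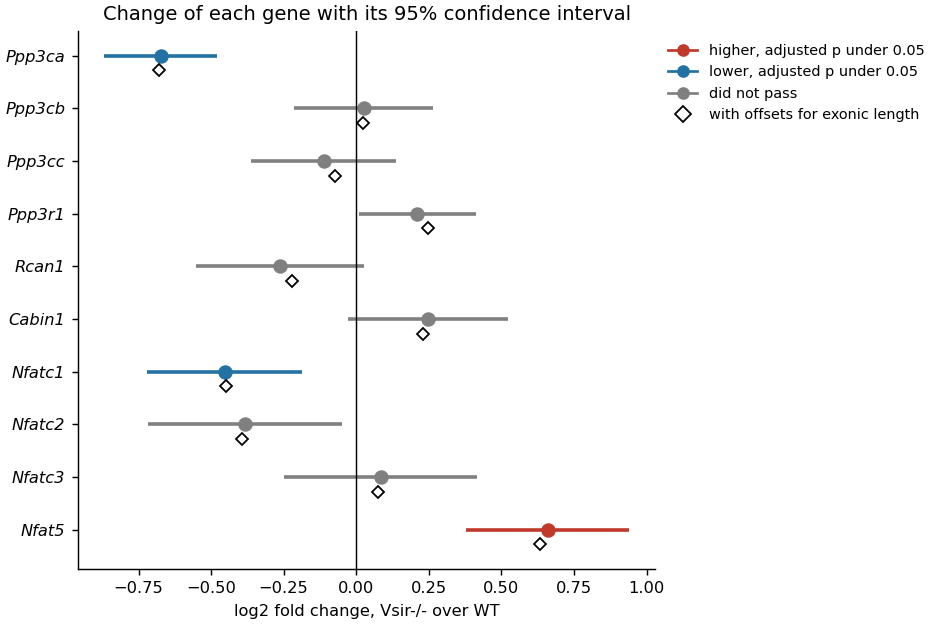
Log2FC of each gene, Vsir-/- over WT, from edgeR with its 95% CI, coloured by the call at an adjusted p of 0.05. Open diamonds are the values with offsets for exonic length, which differ from the others by less than the intervals. Ppp3ca at -0.67 and Nfatc1 at -0.45 are lower, Nfat5 at 0.66 is higher.

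Among the NFAT factors, Nfatc1 was at 10.1 ± 1.40 CPM per kb in Vsir-/- and 13.8 ± 1.41 in WT, Nfatc3 at 11.9 ± 1.97 in Vsir-/- and 11.2 ± 2.14 in WT, Nfatc2 at 8.18 ± 1.58 in Vsir-/- and 10.7 ± 1.61 in WT, and Nfat5 at 1.76 ± 0.241 in Vsir-/- and 1.12 ± 0.0615 in WT (SD, n = 3). By means per kb of annotated exons, the order was Nfatc3, Nfatc1, Nfatc2 and Nfat5 in Vsir-/- and Nfatc1, Nfatc3, Nfatc2 and Nfat5 in WT. The longest coding transcripts of Nfatc1 and Nfatc3 have 4797 and 5984 bases, against 7469 and 11726 exonic bases. Which of these 2 genes comes first in WT therefore depends on the length used. In both genotypes the ranges of neighbours among the first 3 overlapped, and Nfat5 was below the others in every library. As shares of the sum of the 4 genes, Nfatc1 took 30.2%, 32.7% and 32.3% in Vsir-/- libraries, against 38.0%, 39.0% and 36.0% in WT libraries. Nfatc3 took 38.4%, 35.6% and 37.6% in Vsir-/- libraries, against 30.2%, 28.7% and 32.0% in WT libraries. Nfatc2 took 25.5 ± 1.08% in Vsir-/- and 29.0 ± 0.377% in WT, and Nfat5 5.55 ± 0.187% in Vsir-/- and 3.06 ± 0.244% in WT. None of the 4 shares overlapped between genotypes (two-sided exact permutation tests, p = 0.1 for each, 0.117 adjusted over 7 shares). The shares of a library add up to the whole, so these are not 4 separate results. The share of Nfatc3 was higher in Vsir-/- although its CPM ranges overlapped (log2FC 0.08). The sum of the 4 genes did overlap, at 31.9 ± 5.06 CPM per kb in Vsir-/- and 36.8 ± 5.17 in WT (p = 0.5 by the same exact test).

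Several members varied together within a genotype. Vsir-/- replicate 3 was the lowest Vsir-/- library for 8 of the 10 genes and the highest for none, and WT replicate 3 was the highest WT library for 6 and the lowest for 1. Nfatc2 deviated from its genotype's mean by -0.34 on the log2 scale in Vsir-/- replicate 3 and by 0.24 in WT replicate 3, and Nfatc3 by -0.25 in Vsir-/- replicate 3 and 0.30 in WT replicate 3. Ppp3ca deviated by -0.04 in Vsir-/- replicate 3 and 0.03 in WT replicate 3. Over 8465 genes with at least 10 CPM on average and a length, deviations in Vsir-/- replicate 3 fell with exonic length (Spearman's rho -0.56 across genes, which are not replicates) and those in WT replicate 3 rose with it (0.54). The rho was 0.49 and 0.20 in Vsir-/- replicates 1 and 2, and -0.31 and -0.46 in WT replicates 1 and 2. Deviations are taken from the mean of the genotype's own libraries, so the trend cannot be placed in replicate 3 alone. The longest quartile of these genes had a median deviation of -0.12 in Vsir-/- replicate 3 and 0.11 in WT replicate 3, and the 10 genes had one of -0.14 in Vsir-/- replicate 3 and 0.07 in WT replicate 3. Nfatc2, Nfatc3, Nfat5 and Cabin1 have 10578 to 18378 exonic bases, and Rcan1, Ppp3cc and Ppp3r1 have 2985 to 3228. With offsets for exonic length, added after these values were seen, 5 of the 10 genes were called, the 3 above with Nfatc2 and Ppp3r1. In the same setting 5741 of all 12889 genes were called, so this count is no result about the 10 genes.

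**Figure D4:**
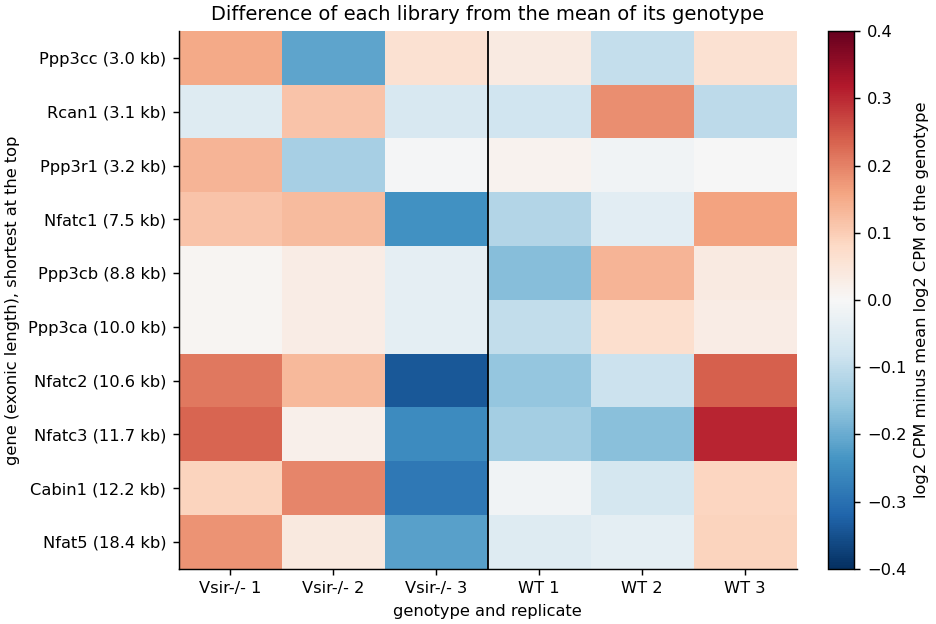
Log2 CPM of each gene in each library minus the mean of its genotype, with genes ordered by exonic length from the shortest (top) to the longest (bottom). Vsir-/- replicate 3 is lowest and WT replicate 3 highest for the long genes Nfatc2, Nfatc3 and Nfat5, and Ppp3ca stays near 0 in both.

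Over the 6 libraries, the genes whose log2 CPM was most like that of Ppp3ca, the member with the smallest p, were E2f2, Rin3, Crtc3, Gm5547 and Ankrd6 (Pearson's r of 0.998 to 0.999, as a description). Of the other 13165 genes, 82 had an r of at least 0.99. Crtc3 encodes a CREB coactivator that calcineurin also dephosphorylates, and had 31.0, 31.4 and 28.8 CPM in Vsir-/- libraries, against 51.7, 57.1 and 58.3 CPM in WT libraries. Both genes were steady within Vsir-/- and lay below every WT library, which for Crtc3 follows from its choice by likeness to Ppp3ca.

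Of 18 calcium entry and calmodulin genes, 9 were lower, 2 were higher and 7 did not pass, with a median log2FC of -0.27, against -0.01 over all genes tested (61.1% called, against 38.9%). Atp2a3, a calcium pump that refills the endoplasmic reticulum, had 234, 223 and 194 CPM in Vsir-/- libraries, against 548, 529 and 577 CPM in WT libraries (log2FC -1.34, adjusted p = 2.28e-06 from edgeR). Itpr2, an IP3 receptor that releases calcium from that store, fell by 1.16, and Stim2, a sensor of the store's calcium, by 0.79 on the log2 scale. Atp2b4, a pump that moves calcium out of the cell, had 63.2, 60.9 and 63.0 CPM in Vsir-/- libraries, against 31.2, 32.7 and 31.4 CPM in WT libraries (log2FC 0.97). The other gene that was higher was Atp2a2, a pump that refills the same store as Atp2a3, at 831 ± 108 CPM in Vsir-/- and 659 ± 72.7 CPM in WT (0.33, adjusted p = 0.0397). It lost its call when replicate 1 or 2 of either genotype was left out (adjusted p of 0.106 to 0.138). Stim1 (-0.44) and Calm3 (-0.50) were lower under any single library left out. Plcg1 (-0.45) and Calm2 (-0.30) were lower too, but Plcg1 lost its call without WT replicate 3 or Vsir-/- replicate 2 or 3 (0.0572 to 0.0862) and Calm2 when replicate 1 or 2 of either genotype was left out (0.0746 to 0.126). The channel gene Orai1 was at 0.06 (adjusted p = 0.641). These 6 genes were named after their values were seen.

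Of 12 other family members and partners of calcineurin and NFAT, 7 were tested, and 1 was lower and none higher (14.3% called, against 38.9% of all genes tested). It was Rcan3, a paralogue of Rcan1, with 44.6, 46.4 and 37.2 CPM in Vsir-/- libraries, against 62.7, 63.5 and 76.2 CPM in WT libraries (log2FC -0.66, adjusted p = 0.00149 from edgeR). Nfatc2ip, a protein that binds NFATc2, was at -0.26 (adjusted p = 0.365), Ppia, the cyclophilin that cyclosporin binds, at -0.12 (adjusted p = 0.449), and Lrrk2 at 1.18 (adjusted p = 0.308, at under 1 CPM in every library), which was called without WT replicate 1 (2.74, adjusted p = 0.0478).

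NFAT is rephosphorylated by several kinases and exported from the nucleus. Of 14 tested genes of these functions, 4 were lower, 1 was higher and 9 did not pass (median 0.08), which at 35.7% called is no more than the 38.9% of all genes. Mapk14, the p38 alpha kinase, had 126, 109 and 102 CPM in Vsir-/- libraries, against 181, 182 and 185 CPM in WT libraries (log2FC -0.70, adjusted p = 0.000234 from edgeR). Dyrk3 was higher (0.47), and Dyrk1b (-0.54) and Mapk8 (-0.66) were lower. The number called fell to 2 without WT replicate 1 or without Vsir-/- replicate 2, and to 3 without WT replicate 2 or Vsir-/- replicate 3. Among the calls lost were those of Dyrk1b (adjusted p = 0.0577 without WT replicate 1) and Mapk8 (0.133 without WT replicate 2). With replicates 1 and 2 summed 2 were called, Dyrk1b (0.0787) and Mapk8 (0.0844) being lost.

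Of 19 genes known as NFAT targets in T cells 14 were tested, and of these 10 were higher, 2 were lower and 2 did not pass, with a median of 1.23 (85.7% called). Over all genes tested the median was -0.01 and 38.9% were called. This list, like the others here, was chosen with earlier results of these data known, so its share called is not an independent result. Nfatc1 and Rcan1 are on this list too, the first among the 2 lower and the other among those that did not pass. Irf4, a transcription factor induced by antigen receptors, had 326, 303 and 259 CPM in Vsir-/- libraries, against 82.0, 80.2 and 100.4 CPM in WT libraries (log2FC 1.76, adjusted p = 1.99e-06 from edgeR). Tnf rose by 1.51 and Il5, the eosinophil growth factor, by 0.92 on the log2 scale. Ptgs2, the inducible cyclooxygenase, had 778 counts in Vsir-/- libraries and 8 in WT libraries, a ratio of 124 after scaling by total counts (95% exact interval 62.4 to 287, for counting error only). The other gene called lower was Il4 (-0.78, adjusted p = 0.0138), named after its value was seen. It lost the call without WT replicate 1 (0.0535), without Vsir-/- replicate 2 (0.0522) and with replicates 1 and 2 summed (0.0712). Other transcription factors are also known to act on these genes. The 4 T cell markers tested were lower in the same Vsir-/- libraries. Whether either has a part in these values was not tested.

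Of 7 tested genes known as osmotic targets of NFAT5, 3 were higher, 1 was lower and 3 did not pass (median 0.22). The share called was 57.1%, against 38.9% of all genes tested. Slc5a3, a carrier of the osmolyte myo-inositol, had 12.98, 12.6 and 10.46 CPM in Vsir-/- libraries, against 4.70, 4.68 and 5.01 CPM in WT libraries (log2FC 1.33, SE 0.15, adjusted p = 7.20e-05 from edgeR). Slc6a6, the taurine carrier, had 226, 211 and 176 CPM in Vsir-/- libraries, against 122, 136 and 128 CPM in WT libraries (log2FC 0.67, adjusted p = 0.000596). In both genes, as in Nfat5, every Vsir-/- library was above every WT library and Vsir-/- replicate 3 was the lowest of the Vsir-/- libraries. Neither trait is particular to them. The ranges were apart, above or below WT, in 49.4% of all genes tested, and Vsir-/- replicate 3 was the lowest Vsir-/- library for 8 of the 10 members. Hspa1b, a heat shock protein gene with a near-identical copy whose reads it may share, rose by 1.08 and Sgk1, a kinase, fell by 0.46, a call that was lost with replicates 1 and 2 summed (adjusted p = 0.0551). Akr1b3, the aldose reductase that makes sorbitol, named after its value was seen, was at 0.07 (adjusted p = 0.581).

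**Figure D5:**
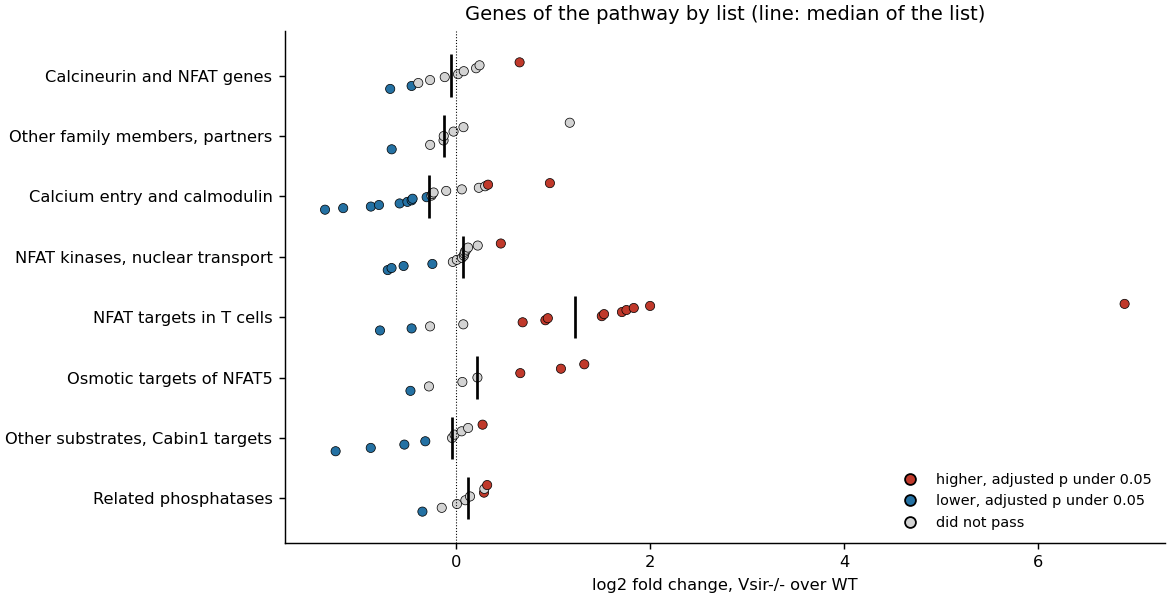
Log2FC, Vsir-/- over WT, of every tested gene of each list, coloured by the call at an adjusted p of 0.05, with a line at the median of the list. The point at 6.89 is Ptgs2, whose fitted value rests on 8 counts in WT. NFAT targets in T cells have a median of 1.23 and calcium entry and calmodulin genes of -0.27. The lists were chosen with earlier results of these data known.

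Of 9 tested genes of other calcineurin substrates and Cabin1 targets, 4 were lower, 1 was higher and 4 did not pass (median -0.04). The share called was 55.6%, against 38.9% of all genes tested. Tfeb, a lysosomal transcription factor, had 9.76, 11.5 and 10.95 CPM in Vsir-/- libraries, against 26.1, 28.3 and 21.4 CPM in WT libraries (log2FC -1.24, adjusted p = 7.53e-05 from edgeR). Crtc3 fell by 0.87 and Bad, a death-promoting protein, by 0.53, and Crtc2, a paralogue of Crtc3, rose by 0.28. The number called was 2 when WT replicate 2 was left out, and 3 when replicate 1 or 3 of WT, or replicate 1 or 2 of Vsir-/-, was. With replicates 1 and 2 summed it was 2, without Crtc2 (adjusted p = 0.102) and Bad (0.0890). Crtc2 lost its call when any WT library or Vsir-/- replicate 1 was left out (adjusted p of 0.0538 to 0.0878), and Bad when WT replicate 2 or replicate 1 or 2 of Vsir-/- was (0.0530 to 0.0844). The MEF2 genes tested, named after their values were seen, were at -0.01 for Mef2a and 0.06 for Mef2d, and neither passed.

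Of 8 catalytic subunits of related phosphatases, 2 were higher, 1 was lower and 5 did not pass (median 0.12), which at 37.5% called is no more than the 38.9% of all genes. Ppp2ca, of protein phosphatase 2A, had 566, 521 and 556 CPM in Vsir-/- libraries, against 443, 426 and 442 CPM in WT libraries (log2FC 0.32, adjusted p = 0.00686 from edgeR). Ppp5c rose by 0.29, Ppp1ca, of protein phosphatase 1, fell by 0.34, and Ppp6c was at 0.30 (adjusted p = 0.0615). Only 1 was called without WT replicate 1, where Ppp5c and Ppp1ca were both at an adjusted p of 0.0577. Ppp5c also lost its call without WT replicate 3, and Ppp1ca without WT replicate 2 or Vsir-/- replicate 1. None of the 8 was called by edgeR with replicates 1 and 2 summed, where 3 had an unadjusted p under 0.05 and Ppp2ca an adjusted p of 0.0530, nor with WT replicate 1 as the single WT library, where 1 had an unadjusted p under 0.05 and Ppp2ca an adjusted p of 0.161. With all libraries DESeq2 and voom each called 4.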

How the data were processed

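Gene counts of 6 libraries of sorted aILC2s (3 Vsir-/-, 3 WT) were analysed. The submitters' processing notes name Partek 10.0, STAR 2.7.8, DESeq2 and the build mm10, with no role for each. The authors deposited estimated counts per gene, not scaled to library size, and 60.8% to 69.5% of a library's values were within 0.01 of a whole number. The annotation, counting method and strand setting are not given in the sources used here. Loci and exonic lengths were taken from an annotation of GRCm38, the assembly that mm10 names, with a length for 97.9% of tested genes.

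Counts were rounded, and genes kept by filterByExpr (minimum count 10, total 15) were tested in R 4.3.3 with edgeR 4.0.16 (TMM, quasi-likelihood test on genotype, Benjamini-Hochberg adjustment, threshold 0.05). Of 15212 genes 13166 were tested, and 19 had only zeros. Totals of 15680892 to 29197999 counts put 3 counts at 0.103 to 0.191 CPM. Single values and shares were compared by two-sided exact permutation tests over libraries. Intervals on counts cover counting error only. The test was checked on simulated data.

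The alternatives were DESeq2 1.42.0, limma 3.58.1 voom, other scaling, filters and threshold, a replicate block, summed or left-out libraries, and, added after seeing the data, offsets for exonic length and the longest coding transcript as length. The members and lists were chosen with earlier results of these data known. All 10 members are named, with up to 4 genes per list by smallest p and the 5 genes most like the member of smallest p. Others are marked as named after their values were seen.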

Additional observations from a re-analysis of the deposited data

How the results depend on the processing

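With 5124 genes called in all, 2480 were called with WT replicate 1 as the single WT library and 3327 at an adjusted p of 0.01, and the 40 called genes of the other lists became 21 and 25. With that single WT library the calls fell to 4 of 18 calcium genes, 1 of 14 NFAT kinase and transport genes, 2 of 7 osmotic targets, 2 of 9 other substrates and 0 of 8 related phosphatases (edgeR, 1 with an unadjusted p under 0.05). In both settings 2 of the 10 members were called, Nfatc1 being lost. Members called numbered 4 with DESeq2 and with voom, and 5 with offsets for exonic length. Beside them stood 5136 and 5841 of all 13166 genes, and 5741 of 12889 with the offsets. Leaving out single libraries gave 3922 to 4950 genes, 3 to 4 members and 31 to 38 genes of the other lists, a share difference of Ppp3ca of -9.23 to -7.07 points and a log2 fold change of Vsir of -10.0 to -6.62, which depends on the prior count. The share difference of Ppp3ca was -10.6 points with counts not divided by length. Genes that never passed changed sign: Nfatc3 to -0.0454 and Ppp3cb to -0.00401 with replicates 1 and 2 summed, and without single libraries Nfatc3 spanned -0.0382 to 0.25, Ppp3cb -0.0575 to 0.10 and Ppp3cc -0.19 to 0.00387. The cause was not tested. Deviations of same-numbered libraries correlated at -0.10, 0.20 and -0.48 for replicates 1, 2 and 3 over 8567 genes, and 1 library was closest to its own number. Deviations in each library also followed exonic length to some degree, so this check cannot tell whether the numbers pair libraries. A replicate block left 4094 genes, 3 members and 32 genes of the other lists called. It moved the NFAT kinase and transport genes called to 2 and the other substrates to 3, with Dyrk1b (adjusted p = 0.0520), Mapk8 (0.0565), Crtc2 (0.0903) and Ppp5c (0.0763) past the threshold no longer. With replicates 1 and 2 summed 27 genes of the other lists were called. Every member had at least 216 counts.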
